A study of Helicoverpa armigera with 12 samples.

Results

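Genes that make or place the pigments of the eye and the cuticle were followed through development of the cotton bollworm *Helicoverpa armigera*, a noctuid moth whose larvae feed on many crops. A contig is 1 sequence of the assembled transcriptome. It was counted as a pigment contig by the description of its best protein match in the nr database. Descriptions that counted named an enzyme of tryptophan and kynurenine, an ommochrome-binding protein, or a transporter as protein white, protein scarlet or protein brown. Also counted were the yellow family, tyrosine hydroxylase, dopa decarboxylase, laccase and ebony. The rule used the description and no measured value. It found 52 of the 99711 contigs, in 34 of the 73709 unigenes, where a unigene is a set of contigs that the assembler grouped as 1 locus. The 52 comprised 8 contigs of melanin and tanning enzymes, 11 of tryptophan and kynurenine enzymes, 5 of pigment transport and binding, 23 of the yellow family and 5 of transcription factors that only bear the word yellow in their names. No description held the words protein white, protein brown, kynureninase or tryptophan oxygenase. The best matches were all in moths and butterflies, with 34 of 52 in the silkworm *Bombyx mori*. Contigs of a de novo assembly carry no genome coordinates, and contigs of 1 unigene share sequence, so their values are not independent.

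Insects build brown and black cuticle colours from tyrosine. Tyrosine hydroxylase makes dopa and dopa decarboxylase makes dopamine, which ebony joins to beta-alanine for yellow and tan cuticle, while laccases oxidise the products into quinones that harden the cuticle and yellow proteins shift the balance towards black melanin. The ommochromes, the brown and red screening pigments between the facets of the eye, are instead made from tryptophan by way of kynurenine and 3-hydroxykynurenine, and transporters of the white and scarlet type, known from *Drosophila*, load the precursor into pigment granules.

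RNA of whole bodies was sequenced in 12 libraries from insects reared on artificial diet. Larvae of the 1st instar, taken 3 days after they hatched, gave 4 pools of 30. Larvae of the 5th instar, taken 1 day after the moult, gave 4 pools of 10. Adults taken 1 day after emergence gave 4 pools of 10, of which 2 were male and 2 female. The sex of the larvae was not given. Nothing states that the pools of a stage came from separate rearings, so the p-values measure the spread between these pools, and a whole body cannot tell fewer cells of a type from less RNA per cell.

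The values are FPKM as deposited, fragments scaled to the length of the contig and to the mapped fragments of the library, which allow contigs to be compared per length. Read counts were not analysed here, so the number of fragments under single values was not computed. FPKM of all contigs summed to between 1074573 and 1509632 in a larval library and between 447094 and 688947 in an adult library. The 1st instar libraries resembled each other most, with Pearson's r across contigs of 0.971 to 0.977, against 0.725 to 0.867 among 5th instar libraries. In adults r was 0.882 between the male libraries, 0.846 between the female libraries and 0.617 to 0.712 across the sexes. Of the pigment contigs, 42 had a mean of at least 1 FPKM over the 12 libraries and were tested, together with all 27678 contigs past this filter, on log2(FPKM + 1) with limma. This scale understates changes of low contigs. A change was called at an adjusted p below 0.05.

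Pigment contigs moved in both directions between stages. Between adults and 5th instars, 6 of the 42 tested contigs rose and 6 fell, or 28.6% in all, where 27% of all contigs tested were called (7.31% higher and 19.7% lower in adults). Between adults and 1st instars, 14 rose and 13 fell, or 64.3%, where 45.7% of all contigs were called (14.1% higher and 31.6% lower). Between 5th and 1st instars, 10 rose and 9 fell, or 45.2%, against 40.1% of all contigs (18.4% higher and 21.7% lower). Between adult males and females, 3 were higher and 2 lower in males, or 11.9%, against 12.4% of all contigs (6.82% higher and 5.56% lower). The share called was thus near that of all contigs for adults against 5th instars and for the sexes. The median log2 change of the 42 was −0.29 for adults minus 5th instars (−0.19 over all contigs), 0.50 for adults minus 1st instars (−0.12), 0.25 for 5th minus 1st instars (0.01) and 0.45 for males minus females (0.09). The stage comparisons share libraries and are not independent of each other. All 9 kynurenine contigs called by limma between adults and 1st instars were lower in adults, while 4 of 5 melanin enzymes and 9 of 11 yellow contigs called there were higher. With libraries scaled to the same sum, 5 of 6 melanin enzymes and 11 of 13 yellow contigs called there were higher, but so were 70% of the calls over all contigs (9763 higher and 4189 lower), against 30.9% of them as deposited. The 9 kynurenine contigs came from kynurenine 3-monooxygenase and transaminases only, and the 9 higher yellow contigs included several of yellow-d and of yellow-e. The 4 higher melanin contigs as deposited were a pair of ebony and a pair described as laccase 2 or laccase-2-like. Each pair may be parts of 1 gene. Contigs of 1 gene are not separate evidence.

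Tyrosine hydroxylase (c55595_g1_i1), which carries out the first step of melanin synthesis, had the largest change of any pigment contig tested on this scale. It had 34.6, 42.3, 77.6 and 17.9 FPKM in 1st instars, 5.20, 1.60, 2.07 and 2.83 FPKM in 5th instars, 342 and 161 FPKM in adult males and 41.8 and 69.3 FPKM in adult females. Every adult library lay above every 5th instar library, and every 5th instar library lay below every 1st instar library. In adults it rose by 4.94 ± 0.62 (SE) on the log2 scale over 5th instars (limma adjusted p = 8.4e-05), and in 5th instars it fell by 3.39 ± 0.62 against 1st instars (limma adjusted p = 0.0014). The difference between adults and 1st instars, 1.55 on the log2 scale, missed the threshold (limma adjusted p = 0.059) but passed without 1st instar replicate 3 (1.89), without female replicate 3 (2.02) and under both other scalings (2.82 with libraries scaled to the same sum and 2.67 with quantile normalization). Both male libraries exceeded both female libraries, and this difference of 2.11 missed the threshold too (limma adjusted p = 0.059). Of the summed FPKM of the 52 contigs, tyrosine hydroxylase made up 40.2% and 27.2% in the male libraries and 7.47% and 17.3% in the female libraries, against 0.311% to 1.12% in 5th instars.

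Dopa decarboxylase (c59580_g1_i1), the next enzyme, followed a different course. Its FPKM was 147, 187, 141 and 276 in 1st instars, 30.9, 23.5, 49.7 and 25.4 in 5th instars, 23.0 and 23.8 in males and 16.1 and 20.9 in females. All 1st instar libraries lay above all others, and adults and 5th instars overlapped. It fell by 3.06 ± 0.29 (SE) in adults (limma adjusted p = 6e-06) and by 2.51 ± 0.29 in 5th instars (limma adjusted p = 5.8e-05), both against 1st instars. Within each library the FPKM of tyrosine hydroxylase divided by that of dopa decarboxylase, a ratio in which the scale of the library cancels, was 0.0647 to 0.552 in 1st instars and 0.0417 to 0.168 in 5th instars, but 14.9 and 6.77 in males and 2.59 and 3.31 in females. Dopa decarboxylase was thus the higher of the pair per length in all larval libraries and the lower in all adult libraries.

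**Figure D1:**
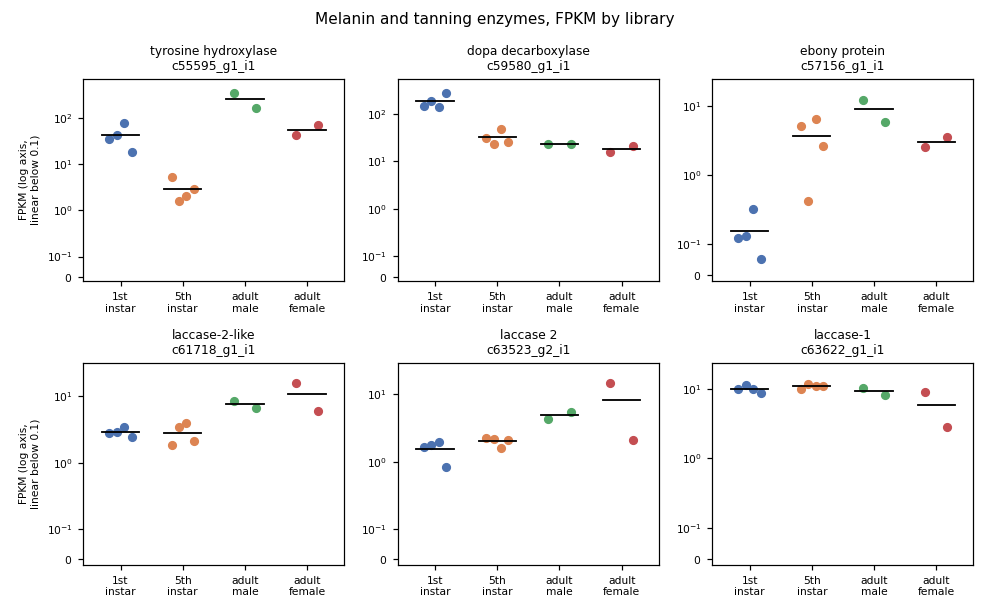
FPKM of 6 melanin and tanning contigs (log axis, linear below 0.1) in each library by stage and adult sex, where each point is a library and each bar a group mean. Tyrosine hydroxylase is at 1.60 to 5.20 FPKM in 5th instars and at 41.8 to 342 FPKM in adults, while dopa decarboxylase is highest in 1st instars.

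Ebony, which makes N-beta-alanyldopamine for yellow and tan cuticle, was held by a pair of contigs in separate unigenes that may be parts of 1 gene, which the table does not settle. The contig described as Ebony (c56263_g3_i1) had 0.223, 0.202, 0.192 and 0.0520 FPKM in 1st instars, 6.20, 0.215, 4.97 and 3.92 FPKM in 5th instars, 12.8 and 7.20 FPKM in males and 3.42 and 4.46 FPKM in females. The contig described as ebony protein (c57156_g1_i1) had 0.124, 0.131, 0.324 and 0.0520 FPKM in 1st instars, 5.17, 0.419, 6.47 and 2.62 FPKM in 5th instars, 12.1 and 5.85 FPKM in males and 2.55 and 3.54 FPKM in females. In both contigs every adult library lay above every 1st instar library, and 5th instar replicate 2 stood far below the other 5th instar libraries. In adults they rose by 2.63 and 2.42 over 1st instars (limma adjusted p = 0.0014 and 0.0022). In 5th instars they rose by 1.78 and 1.77 over 1st instars (limma adjusted p = 0.017 for each), and without 5th instar replicate 3 these changes were 1.59 and 1.46 with adjusted p = 0.0516 and 0.0533. Adults and 5th instars did not differ past the threshold as deposited. With libraries scaled to the same sum, both contigs were higher in adults, by 1.81 and 1.59 (limma adjusted p = 0.00977 and 0.0164), but neither passed with quantile normalization (1.28 and 1.08, limma adjusted p = 0.0977 and 0.159).

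Laccase 2 is the phenoloxidase that hardens and colours insect cuticle. Its tested contigs were a pair in separate unigenes, and the descriptions do not settle whether they are parts of 1 gene. The contig described as laccase-2-like (c61718_g1_i1) had 2.82, 2.91, 3.36 and 2.39 FPKM in 1st instars, 1.87, 3.40, 3.87 and 2.12 FPKM in 5th instars, 8.41 and 6.58 FPKM in males and 15.6 and 5.99 FPKM in females. All adult libraries exceeded all larval ones, and it rose in adults by 1.36 over 5th instars (limma adjusted p = 0.0039) and by 1.31 over 1st instars (limma adjusted p = 0.0028). Laccase 2 (c63523_g2_i1) had 1.64, 1.73, 1.94 and 0.833 FPKM in 1st instars, 2.25, 2.15, 1.61 and 2.06 FPKM in 5th instars, 4.33 and 5.46 FPKM in males and 14.5 and 2.08 FPKM in females. It rose in adults by 1.35 over 1st instars (limma adjusted p = 0.015). Female replicate 4, at 2.08 FPKM, lay among the 5th instar libraries, and the change of 1.08 over 5th instars missed the threshold (limma adjusted p = 0.062) but was 1.43 and passed without that library (limma adjusted p = 0.0113), as it did under both other scalings. Laccase-1 (c63622_g1_i1), a paralogue, stayed between 8.59 and 11.7 FPKM in larvae and had 10.1 and 8.21 FPKM in males and 8.99 and 2.86 FPKM in females, and was called in no comparison. A further laccase-like contig (c57350_g1_i1) did not pass the filter, at 0.0520 to 1.39 FPKM. Markers of the cuticle itself, 300 contigs described as cuticular or cuticle proteins, summed to 67341 to 79873 FPKM in 1st instars, 45746 to 141900 FPKM in 5th instars, 23500 to 35179 FPKM in males and 18442 to 18842 FPKM in females. Adult libraries also had the lower FPKM total over all contigs. Contig by contig, 50 of the 192 tested were higher and 54 lower in adults against 5th instars (median log2 change 0.00102), or 71 and 45 with the same sum in each library, and 44 were higher and 88 lower against 1st instars (median −0.999), or 61 and 74 with the same sum. Over all 27678 contigs tested, 7.31% were higher and 19.7% lower against 5th instars as deposited, or 7789 and 3181 contigs with the same sum. Against 1st instars these were 14.1% and 31.6% as deposited, or 9763 and 4189 contigs with the same sum. The part of the cuticle markers in the values of ebony and the laccases was not tested.

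The first 2 enzymes towards the ommochromes differed in their course. Tryptophan 2,3-dioxygenase (c57270_g1_i1), which opens the ring of tryptophan and is the vermilion gene of *Drosophila*, had 48.0, 47.3, 59.1 and 43.3 FPKM in 1st instars, 16.1, 10.8, 26.0 and 3.99 FPKM in 5th instars, 18.7 and 17.6 FPKM in males and 50.9 and 20.7 FPKM in females. No 5th instar library reached a 1st instar library, and it fell by 1.96 in 5th instars (limma adjusted p = 0.0075). Adults overlapped both larval stages, and against 5th instars their difference missed the threshold as deposited but passed as higher in adults with libraries scaled to the same sum (2.05, limma adjusted p = 0.0045) and with quantile normalization (1.73, limma adjusted p = 0.031). Against 1st instars adults were called neither higher nor lower under any of these scalings. Kynurenine formamidase (c62569_g1_i1), the second step, had 10.5, 12.9, 15.1 and 10.4 FPKM in 1st instars, 30.8, 27.2, 32.4 and 12.9 FPKM in 5th instars, 7.07 and 6.24 FPKM in males and 24.1 and 4.95 FPKM in females. It fell by 1.40 in adults against 5th instars (limma adjusted p = 0.032) although female replicate 3 overlapped them. This call was lost without any 1 of 5th instar replicates 1, 2 and 3, both male libraries and female replicate 4 (log2 changes −1.35 to −1.16), as well as without the filter, with only the groups compared and under the other scalings (−0.37 with the same sum and −0.89 with quantile normalization).

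Kynurenine 3-monooxygenase, the cinnabar enzyme of *Drosophila*, makes 3-hydroxykynurenine, the direct precursor of the ommochromes. Its main contig (c63641_g1_i1) had 94.2, 96.6, 82.1 and 57.6 FPKM in 1st instars, 36.1, 37.9, 33.0 and 51.2 FPKM in 5th instars, 3.29 and 6.43 FPKM in males and 62.3 and 21.7 FPKM in females. Both male libraries lay below every other library, whereas female replicate 3 fell within the range of 1st instars. In adults it fell by 2.49 ± 0.66 (SE) against 1st instars (limma adjusted p = 0.0088), a call that was lost under both other scalings (−1.27 with the same sum and −1.53 with quantile normalization). For males minus females its log2 change was −2.75 ± 0.47 (limma adjusted p = 0.0031), which missed the threshold when only the 4 adult libraries were fitted (limma adjusted p = 0.17).

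A neighbouring unigene held 2 more contigs of the same enzyme. Contig c63641_g2_i1 had 23.1, 26.5, 26.4 and 32.3 FPKM in 1st instars, 8.04, 12.3, 8.42 and 11.5 FPKM in 5th instars, 1.06 and 2.34 FPKM in males and 15.8 and 6.32 FPKM in females. Contig c63641_g2_i2 had 35.9, 36.0, 26.2 and 13.4 FPKM in 1st instars, 11.5, 4.43, 11.2 and 12.4 FPKM in 5th instars, 0.507 and 0.739 FPKM in males and 3.46 and 6.01 FPKM in females. Males were again the lowest libraries for both, and neither overlapped between adults and 1st instars. In adults they fell by 2.37 and 3.17 against 1st instars (limma adjusted p = 0.0027 and 0.00041), the first of these calls being lost with the same sum in each library (−1.26). The g2_i1 contig was lower in males than in females, with a log2 change of −2.08 (limma adjusted p = 0.0062) that missed the threshold without male replicate 1 (−1.73, limma adjusted p = 0.0642) and with only the adults fitted (limma adjusted p = 0.205). The same comparison gave −1.79 for g2_i2 and missed it (limma adjusted p = 0.056), but the sum of both contigs, 1.57 and 3.08 FPKM in males against 19.2 and 12.3 FPKM in females, passed with −2.34 (limma adjusted p = 0.00029). The g2_i2 contig also fell in adults against 5th instars, by 1.77 (limma adjusted p = 0.025), a call that was lost without any 1 of 5th instar replicates 1, 3 and 4 or either male library (log2 changes −1.69 to −1.44), without the filter, with only the groups compared, with unigene sums and under both other scalings.

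**Figure D2:**
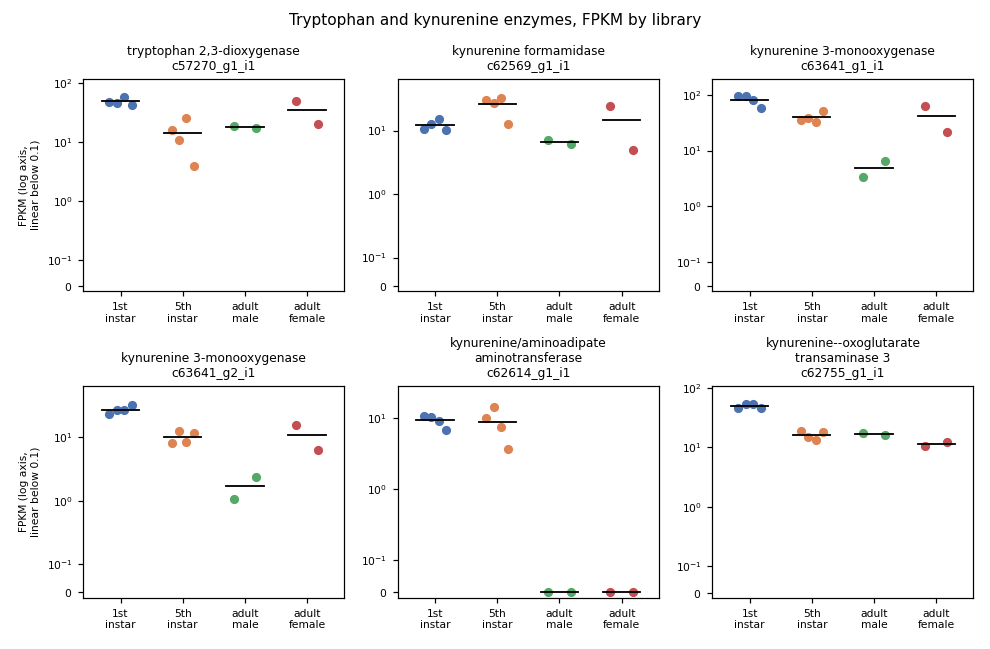
FPKM of 6 contigs of tryptophan and kynurenine enzymes (log axis, linear below 0.1) in each library by stage and adult sex, where each point is a library and each bar a group mean. The 2 male points of kynurenine 3-monooxygenase, 3.29 and 6.43 FPKM for c63641_g1_i1, lie below all other libraries, and kynurenine/aminoadipate aminotransferase is listed at 0 in all 4 adult libraries.

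The remaining kynurenine contigs belong to transaminases, which lead kynurenine away from the ommochromes to kynurenic acid. Kynurenine/alpha-aminoadipate aminotransferase was present in larvae and close to absent from the adult libraries. Its contig c62614_g1_i1 had 10.8, 10.4, 9.11 and 6.92 FPKM in 1st instars and 10.2, 14.3, 7.58 and 3.71 FPKM in 5th instars, and was listed at 0 in all 4 adult libraries. Contig c62614_g2_i1 had 7.12, 7.60, 7.14 and 5.62 FPKM in 1st instars, 6.13, 9.84, 4.57 and 1.08 FPKM in 5th instars, 0.142 and 0 FPKM in males and 0.377 and 0.0170 FPKM in females. Contig c62614_g2_i2 had 2.38, 2.73, 2.23 and 1.80 FPKM in 1st instars, 11.5, 10.5, 7.76 and 2.63 FPKM in 5th instars, 0 and 0.0230 FPKM in males and 0.136 and 0 FPKM in females. Every adult library lay below every larval library for each of the 3, and all fell in adults, by 3.19, 2.28 and 2.99 against 5th instars (limma adjusted p = 9.8e-06, 0.0012 and 3.2e-05) and by 3.35, 2.80 and 1.65 against 1st instars (limma adjusted p = 4.5e-06, 0.00015 and 0.0017). These sizes depend on the 1 FPKM added before the log and are no bounds on a fold. The last contig rose by 1.33 in 5th over 1st instars (limma adjusted p = 0.0088), a call lost with a pseudocount of 0.01, while the sum of the g2 contigs changed by 0.32, short of the threshold (limma adjusted p = 0.582).

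Kynurenine--oxoglutarate transaminase 3 gave 3 contigs with like values. Its contig c62755_g1_i1 had 45.9, 53.8, 53.3 and 46.1 FPKM in 1st instars, 18.8, 15.1, 13.1 and 17.8 FPKM in 5th instars, 17.6 and 15.9 FPKM in males and 10.3 and 12.3 FPKM in females. The sum of the 3 contigs was 122 to 138 FPKM in 1st instars, 34.8 to 52.6 FPKM in 5th instars, 46.6 and 44.5 FPKM in males and 36.0 and 32 FPKM in females. Later libraries never reached those of 1st instars, and the 3 contigs fell by 1.48 to 1.57 in 5th instars and by 1.51 to 1.78 in adults. The size of the fall in adults depended on the scaling, at 0.27 to 0.55 and short of the threshold for all 3 with libraries scaled to the same sum, and with that scaling the 3 contigs were higher in adults than in 5th instars (0.84 to 1.02), where the deposited values gave −0.21 to −0.03. Over all 11 kynurenine contigs, 5 fell and 0 rose in adults against 5th instars as deposited (limma, with 6 contigs at an unadjusted p below 0.05), but 3 fell and 4 rose with the same sum in each library. Against 1st instars 9 fell and 0 rose in adults as deposited (9 at an unadjusted p below 0.05), 4 fell and 0 rose with the same sum, and 7 fell and 0 rose with quantile normalization. Over all 27678 contigs tested, 19.7% were lower and 7.31% higher against 5th instars as deposited, and 3181 and 7789 with the same sum. Against 1st instars, 31.6% were lower and 14.1% higher as deposited, 4189 and 9763 with the same sum, and 6133 and 5506 with quantile normalization.

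Photoreceptor markers were compared because ommochromes shield the light-sensitive cells. The summed FPKM of 61 contigs described as opsins, arrestins or other photoreceptor proteins was 140 to 152 in 1st instars, 147 to 185 in 5th instars, 593 to 597 in males and 377 to 561 in females. Long wavelength-sensitive opsin (c52406_g1_i1) had 1.90 to 3.15 FPKM in 1st instars, 0.0640 to 0.939 FPKM in 5th instars, 145 and 115 FPKM in males and 120 and 60.7 FPKM in females. The sums in adults were carried by a few contigs, with arrestin 2 (c62854_g1_i1) at 107 to 225 FPKM in adults, and other contigs ran the other way. A second long-wavelength opsin (c57977_g1_i1) was at 14.3 to 18.9 FPKM in 1st instars and at most 0.0970 FPKM in adults. Of the 36 contigs tested, 15 were higher and 6 lower in adults against 5th instars and 15 higher and 8 lower against 1st instars. Over all contigs tested, 7.31% were higher and 19.7% lower against 5th instars, and 14.1% and 31.6% against 1st instars. The list includes arrestin domain proteins that are not particular to the eye. The part of eye size in the values of the kynurenine contigs was not tested.

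The transporter and binding proteins that the rule took were mostly low. Contigs described as scarlet without the word protein fell outside the rule and are given at the end. Protein scarlet-like (c37829_g1_i1), the only transporter that the rule found, was listed at 0 in 10 of 12 libraries, with 0.591 FPKM in male replicate 2 and 0.0840 FPKM in female replicate 4. Ommochrome-binding protein, a blood and epidermal protein described in the hornworm *Manduca sexta*, was held by 4 contigs. The contig described as its precursor (c54853_g1_i1) had 2.95, 2.04, 2.12 and 1.42 FPKM in 1st instars, 17.1, 18.8, 15.4 and 18.9 FPKM in 5th instars, 9.83 and 18.1 FPKM in males and 11.5 and 8.39 FPKM in females. All 1st instars lay below all later libraries, and it rose by 2.58 ± 0.24 (SE) in 5th instars (limma adjusted p = 1.2e-05) and by 2.02 ± 0.24 in adults (limma adjusted p = 4.1e-05). Contigs c62303_g1_i1 and c62303_g1_i2 spanned 0.506 to 6.08 and 0.357 to 7.76 FPKM and were called in no comparison. Contig c49845_g1_i1, below the filter, was listed at 0 in all 8 larval libraries and had 4.25 and 3.19 FPKM in males and 0.0710 and 0.0280 FPKM in females, so that both male libraries exceeded both female ones without a test.

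The yellow family contributed most contigs, and its members peaked at different stages. Protein yellow-like (c41683_g1_i1) had 17.3, 11.5, 18.8 and 9.37 FPKM in 1st instars, 0.280, 0.136, 0.497 and 0.267 FPKM in 5th instars, 3.29 and 3.26 FPKM in males and 1.43 and 2.44 FPKM in females. The 3 stages did not overlap, and it fell by 3.51 ± 0.26 (SE) in 5th against 1st instars (limma adjusted p = 1.7e-06) and rose by 1.45 ± 0.26 in adults over 5th instars (limma adjusted p = 0.0013). Its level in adults stayed below that of 1st instars, a fall of 2.07 (limma adjusted p = 5.4e-05). Yellow-y (c53770_g1_i1), in *Bombyx* the counterpart of the yellow gene of *Drosophila*, had 9.05, 12, 19.8 and 0.104 FPKM in 1st instars, 0.0890, 0, 0 and 0.309 FPKM in 5th instars, 0.164 and 0.0540 FPKM in males and 0.0450 and 0.0110 FPKM in females. Replicates 1, 2 and 3 of the 1st instar stood high, but replicate 4 lay among the later ones. It fell by 2.79 in adults (limma adjusted p = 0.0065) and by 2.76 in 5th instars (limma adjusted p = 0.0094) against 1st instars, and the two-sided exact permutation test gave p = 0.0571 for each. The same 1st instar replicate 4 had the lowest tyrosine hydroxylase (17.9 FPKM), Ebony and laccase 2 (0.833 FPKM) and the highest dopa decarboxylase (276 FPKM) of its stage.

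Other yellow proteins were highest on average in adults. Yellow-b (c50118_g1_i1) had 6.09, 7.74, 5.05 and 7.03 FPKM in 1st instars, 11.9, 2.58, 15.4 and 6.39 FPKM in 5th instars, 79.6 and 57.9 FPKM in males and 57.6 and 36.8 FPKM in females. Adults and larvae did not overlap, and it rose in adults by 2.72 ± 0.42 (SE) over 5th instars (limma adjusted p = 0.00047) and by 2.94 ± 0.42 over 1st instars (limma adjusted p = 0.00015). A yellow-c contig (c75704_g1_i1) had 6.24, 5.11, 6.65 and 5.01 FPKM in 1st instars, 14.6, 8.46, 20.1 and 6.66 FPKM in 5th instars, 102 and 62.5 FPKM in males and 14.1 and 45.5 FPKM in females. It rose in adults by 2.78 over 1st instars (limma adjusted p = 0.0009) and by 1.90 over 5th instars (limma adjusted p = 0.016), with female replicate 3 among the 5th instar libraries. The last call was lost when only adults and 5th instars were fitted (limma adjusted p = 0.075). Yellow-e, whose loss darkens part of the larval cuticle in *Bombyx*, was held by 3 contigs of 1 unigene, of which c63317_g1_i2 had 0.272, 0.226, 0.264 and 0.286 FPKM in 1st instars, 0.826, 0.464, 1.02 and 0.373 FPKM in 5th instars, 4.90 and 5.99 FPKM in males and 0.883 and 2.07 FPKM in females. It rose in adults by 1.64 over 1st instars (limma adjusted p = 0.0035), and by 1.25 over 5th instars (limma adjusted p = 0.026). The call over 5th instars was lost without any 1 of 5th instar replicates 2 and 4 and male replicates 1 and 2 (0.98 to 1.19). It was also lost when only adults and 5th instars were fitted (limma adjusted p = 0.095). The other contigs of yellow-e rose in adults over 1st instars by 1.06 and 1.05 (limma adjusted p = 0.027 and 0.022). Against 5th instars they were called, as higher in adults, only under the other scalings (1.68 and 1.60 with the same sum, 1.36 and 1.29 with quantile normalization).

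**Figure D3:**
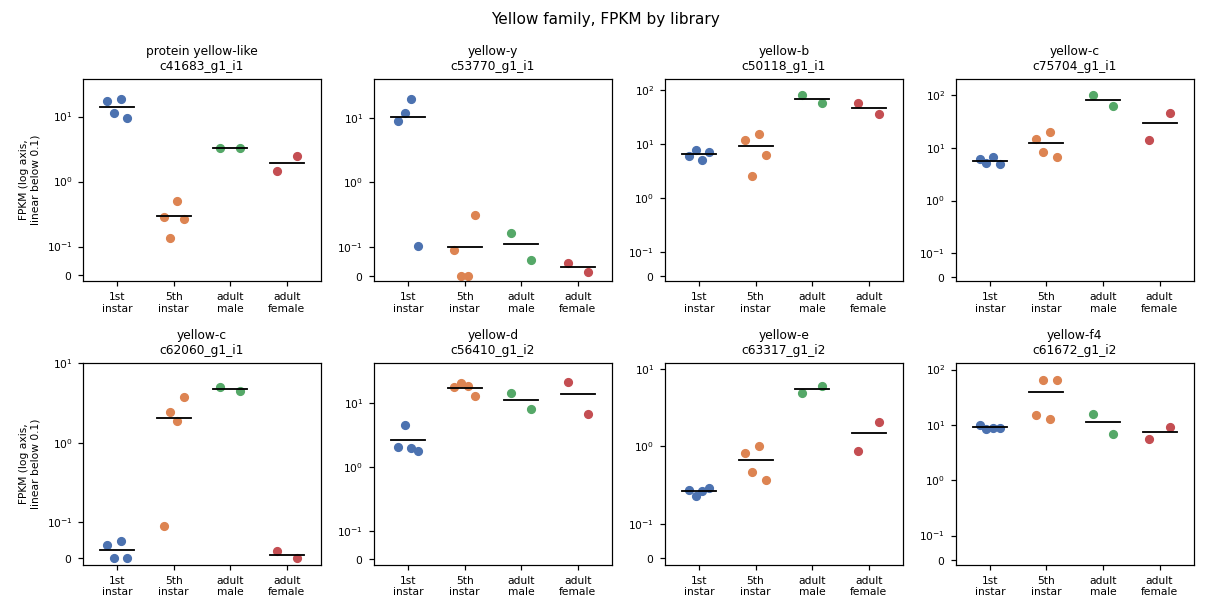
FPKM of 8 yellow-family contigs (log axis, linear below 0.1) in each library by stage and adult sex, where each point is a library and each bar a group mean. Protein yellow-like and yellow-y are highest in 1st instars, yellow-b is at 36.8 to 79.6 FPKM in adults, and yellow-c c62060_g1_i1 is at 4.95 and 4.51 FPKM in males and at 0.0190 and 0 FPKM in females.

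Yellow-d was lowest in 1st instars. Yellow-d (c56410_g1_i2) had 2.09, 4.63, 1.97 and 1.77 FPKM in 1st instars, 18.1, 20.6, 18.5 and 13.1 FPKM in 5th instars, 14.4 and 8.08 FPKM in males and 21.4 and 6.82 FPKM in females. A second yellow-d contig (c56410_g1_i3) had 1.56, 3.55, 1.40 and 1.13 FPKM in 1st instars, 14.2, 16.9, 15.7 and 9.34 FPKM in 5th instars, 13.2 and 7.99 FPKM in males and 18.3 and 5.63 FPKM in females. In both, 1st instar libraries lay below all others. They rose by 2.41 and 2.40 in 5th instars (limma adjusted p = 0.0003 and 0.00036) and by 1.85 and 2.02 in adults (limma adjusted p = 0.0011 and 0.00069), each over 1st instars. The other yellow-d contigs rose in 5th instars by 1.00 (c56410_g1_i4) and 1.18 (c56410_g1_i5). As deposited, c56410_g1_i5 was also called higher in adults than in 1st instars, by 0.66 (limma adjusted p = 0.024). Contig c56410_g1_i4 was called so only under the other scalings (1.61 with the same sum and 0.81 with quantile normalization).

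Yellow-f proteins convert dopachrome in *Drosophila*. The pair of yellow-f3 contigs changed places between libraries of the same stage. Contig c60497_g1_i1 had 10.1, 11.7, 9.95 and 9.85 FPKM in 1st instars, 29.0, 23.2, 4.90 and 50.7 FPKM in 5th instars, 24.3 and 2.74 FPKM in males and 84.7 and 15.9 FPKM in females. Contig c60497_g1_i2 had 1.04, 1.38, 1.73 and 0.794 FPKM in 1st instars, 41.3, 7.55, 62.9 and 3.83 FPKM in 5th instars, 3.29 and 28.3 FPKM in males and 5.59 and 23.4 FPKM in females. The first contig held 85.2% to 92.5% of their sum in 1st instars, but 7.24% to 93.0% in 5th instars and 8.83% to 93.8% in adults, so that the contigs were steady in 1st instars alone. Their sum was steadier, at 10.6 to 13.1 FPKM in 1st instars, 30.8 to 70.3 FPKM in 5th instars, 27.6 and 31.1 FPKM in males and 90.3 and 39.3 FPKM in females. It rose over 1st instars by 2.10 in 5th instars (limma adjusted p = 0.0010) and by 1.76 in adults (limma adjusted p = 0.0019). Of the contigs, only c60497_g1_i2 was called, higher by 3.05 in 5th instars (limma adjusted p = 0.013) and by 2.43 in adults (limma adjusted p = 0.031), and the adult call was lost without any 1 of the 4 1st instar libraries, male replicate 2 or female replicate 4 (2.00 to 2.54) and with the replicate number as a block (limma adjusted p = 0.0628), and without the filter (limma adjusted p = 0.0607).

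**Figure D4:**
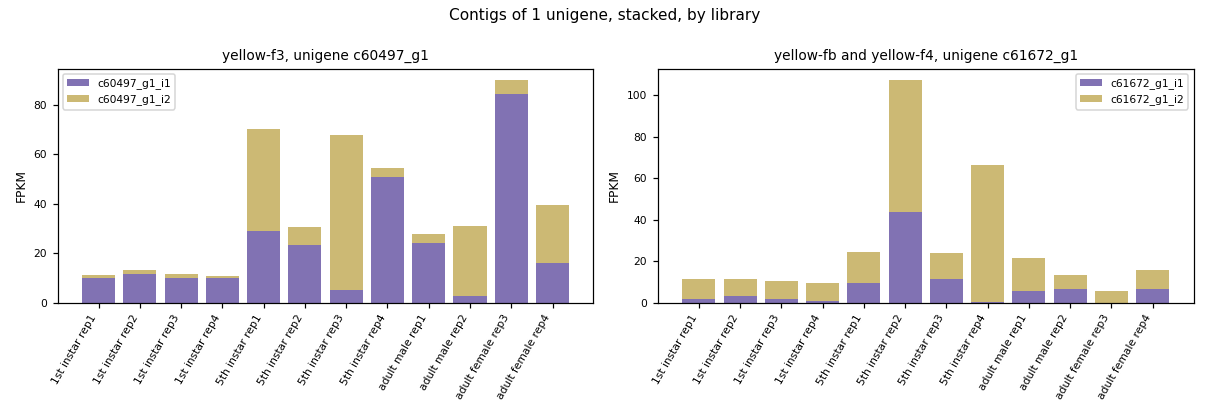
Stacked FPKM of the contigs of 2 yellow-f unigenes in each of the 12 libraries, with 1 bar per library and no error. In 1st instars c60497_g1_i1 makes up 85.2% to 92.5% of its unigene, and in 5th instars and adults its share runs between 7.24% and 93.8%.

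Unigene c61672_g1 also varied widely among 5th instars. Yellow-f4 (c61672_g1_i2) had 9.92, 8.61, 8.83 and 8.78 FPKM in 1st instars, 14.9, 64.1, 12.8 and 66.0 FPKM in 5th instars, 16.0 and 6.81 FPKM in males and 5.50 and 9.35 FPKM in females. Its 5th instar libraries fell into a low and a high pair. It fell by 1.68 in adults against 5th instars (limma adjusted p = 0.032) and rose by 1.64 in 5th over 1st instars (limma adjusted p = 0.027). The adult call was lost without any 1 of 5th instar replicates 2 and 4, male replicate 2 and both female libraries (−1.71 to −1.32), without the filter, with only the groups compared and under both other scalings, and the larval call without any 1 of the 4 1st instar libraries or 5th instar replicates 2 and 4 (1.27 to 1.68) and without the filter (limma adjusted p = 0.0518). Yellow-fb (c61672_g1_i1) of the same unigene had 9.53, 43.6, 11.3 and 0.384 FPKM in 5th instars and was called in no comparison. Neither were yellow-b (c64551_g1_i1), at 6.08 to 18.0 FPKM, and yellow-f (c64551_g1_i2), at 0.643 to 5.09 FPKM. With libraries scaled to the same sum, yellow-b c64551_g1_i1 was higher in adults, by 1.33 over 5th instars (limma adjusted p = 0.00096) and by 1.05 over 1st instars (limma adjusted p = 0.0031). Yellow-h2 (c57108_g1_i1), yellow-h3 (c68411_g1_i1) and putative yellow-h (c76984_g1_i1) did not pass the filter. Yellow-h2 had 2.91 and 2.10 FPKM in males and 0.214 and 0.124 FPKM in females, against 0.124 to 0.645 FPKM in larvae.

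Between the sexes, the called yellow contigs were higher in males. Yellow-c unigene c62060_g1 was close to 0 in females, and its contig c62060_g1_i1 had 0.0370, 0, 0.0480 and 0 FPKM in 1st instars, 0.0890, 2.43, 1.85 and 3.69 FPKM in 5th instars, 4.95 and 4.51 FPKM in males and 0.0190 and 0 FPKM in females. Contig c62060_g1_i3 was listed at 0 in 1st instars and had 0, 2.54, 1.64 and 2.13 FPKM in 5th instars, 5.15 and 4.28 FPKM in males and 0.156 and 0 FPKM in females. In both contigs 5th instar replicate 1 stood with the 1st instar libraries, and the other 5th instar replicates lay between these and males. They were higher in males than in females by 2.50 ± 0.52 and 2.41 ± 0.49 (SE) on the log2 scale (limma adjusted p = 0.011 and 0.0089), while c62060_g1_i2, at 1.30 and 5.85 FPKM in males against 0.0910 and 0.0510 FPKM in females, missed the threshold (1.89, limma adjusted p = 0.17). The summed unigene had 11.4 and 14.6 FPKM in males and 0.266 and 0.0510 FPKM in females, a log2 difference of 3.59 (limma adjusted p = 0.023). The calls of the contigs were lost without male replicate 1 (2.45 and 2.30), that of c62060_g1_i1 also without female replicate 3 (2.52), and that of c62060_g1_i3 with a pseudocount of 0.01 (limma adjusted p = 0.0975).

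Yellow-e (c63317_g1_i2) was the third contig called higher in males, by 1.42 ± 0.28 (limma adjusted p = 0.0077), a call lost without female replicate 3 (1.06, limma adjusted p = 0.0537), with only the adults fitted (limma adjusted p = 0.19) and with a pseudocount of 0.01 (1.99, limma adjusted p = 0.069). Of the 20 yellow contigs tested 3 were higher and 0 lower in males by limma, under both other scalings as well (9 were at an unadjusted p below 0.05), and their median change was 0.76 (0.09 over all contigs). Of the 3, c62060_g1_i1 and c62060_g1_i3 are of 1 unigene. Over all 27678 contigs tested, 6.82% were higher and 5.56% lower in males as deposited, 1803 and 3408 with the same sum, and 1681 and 2871 with quantile normalization. The 2 contigs lower in males were those of kynurenine 3-monooxygenase given above. With 2 libraries a sex, the smallest p an exact permutation test can give is 0.333, so these calls rest on limma and on the spread of all 12 libraries. The counts of 3 higher and 2 lower became 1 and 1 without male replicate 1, and 6 and 4 without female replicate 4. Testis and sperm markers summed to 346 to 395 FPKM in males and 218 to 231 FPKM in females, and egg and ovary markers to 119 to 181 FPKM in males and 613 to 1460 FPKM in females. In 1st and 5th instars the first list summed to 509 to 542 and 584 to 796 FPKM, above both males. The second summed to 680 to 1311 and 317 to 810 FPKM there, so neither list was particular to an adult sex. Of 46 tested testis and sperm contigs 5 were higher and 2 lower in males. Of 14 tested egg and ovary contigs 0 were higher and 3 lower, with a median change of 0.17. The part of either list in the differences between the sexes was not tested.

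The transcription factors stand apart from pigment synthesis. Enhancer of yellow 2 (c52158_g1_i1), in *Drosophila* a small subunit of complexes for histone deubiquitination and mRNA export, had 71.0, 63.3, 63.5 and 69.9 FPKM in 1st instars, 7.97, 47.6, 19.7 and 37.9 FPKM in 5th instars, 18.3 and 19.8 FPKM in males and 11.6 and 9.80 FPKM in females. All 1st instars lay above all others. It fell by 2.15 in adults (limma adjusted p = 0.0022) and by 1.48 in 5th instars (limma adjusted p = 0.023) against 1st instars. The larval call was lost without 1st instar replicate 1 (−1.45), 1st instar replicate 4 (−1.46) or 5th instar replicate 3 (−1.40), and both calls were lost with libraries scaled to the same sum. Supporter of activation of yellow protein (c65520_g1) gave 4 contigs of 0.260 to 2.01 FPKM, none past the filter.

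**Figure D5:**
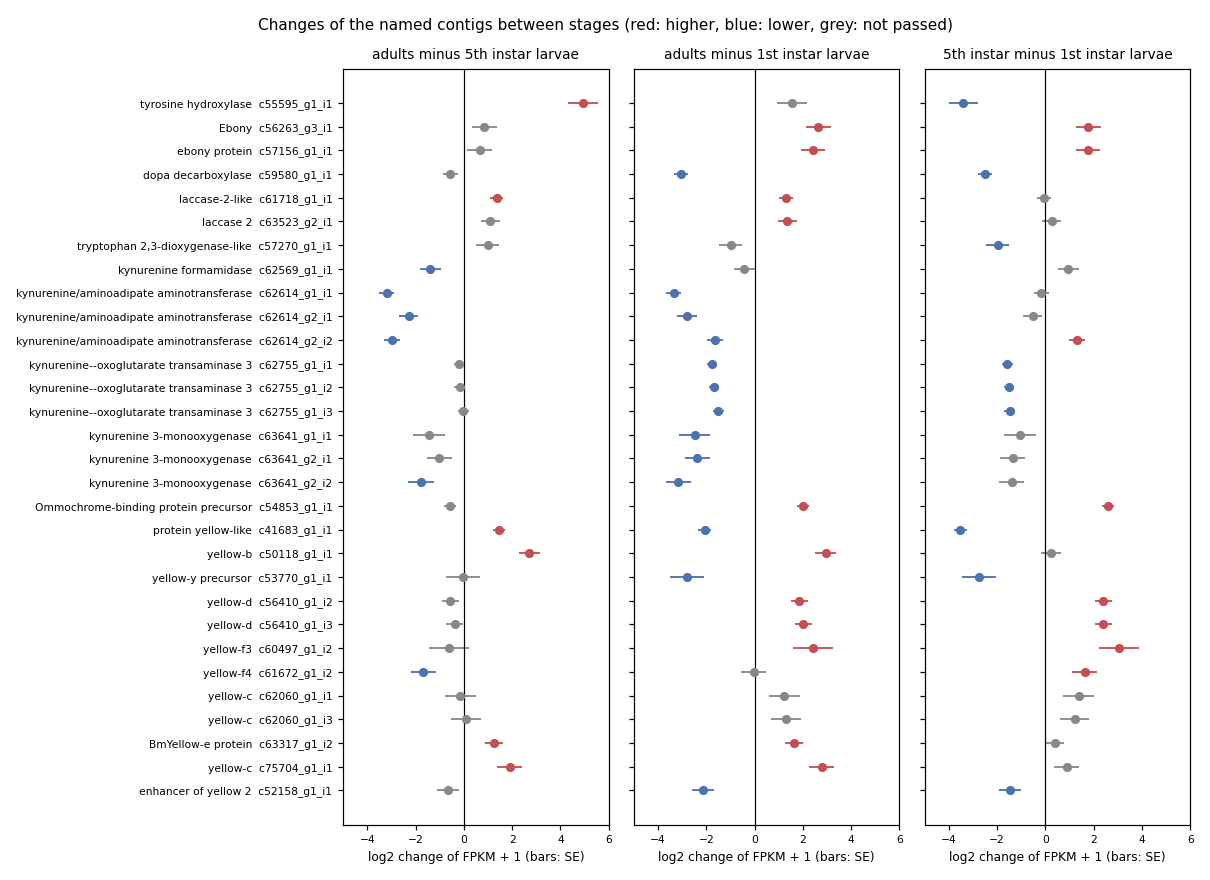
Log2 change of FPKM + 1 with its SE for the 30 named contigs in the 3 stage comparisons, where red points passed as higher, blue points as lower and grey points did not pass. No kynurenine contig passed as higher in adults in these deposited values (4 did against 5th instars with libraries scaled to the same sum), and tyrosine hydroxylase has the largest change, 4.94 over 5th instars.

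Neighbouring pigment pathways were counted from lists of words in the descriptions, and are to be read against all contigs, of which 7.31% were higher and 19.7% lower in adults against 5th instars, and 14.1% higher and 31.6% lower against 1st instars. Of the 14 tested partners of the melanin enzymes, 5 were higher and 5 lower in adults against 5th instars. The 5 that rose were contigs of arylalkylamine N-acetyltransferase, which acetylates dopamine for colourless cuticle, with 42.1 and 13.7 FPKM in males and 4.57 and 7.97 FPKM in females for c60218_g1_i5, against 0.894 to 2.57 FPKM in larvae. The tested contigs of this enzyme included several of unigene c60218_g1, which are not separate evidence. The 5 that fell were 4 contigs of prophenoloxidase, the phenoloxidase of the blood, and 1 of dopamine N-acetyltransferase. Prophenoloxidase-1 (c62818_g1_i1) had 25.5, 47.7, 35.4 and 39 FPKM in 1st instars, 301, 150, 237 and 33.1 FPKM in 5th instars, 1.75 and 1.84 FPKM in males and 5.98 and 6.39 FPKM in females. Of 15 tested contigs of pteridine synthesis, which supplies white, yellow and red pigments, 1 was higher and 10 lower in adults against 5th instars (2 and 4 with the same sum in each library) and 1 higher and 9 lower against 1st instars. GTP cyclohydrolase I isoform A (c56740_g1_i1), its entry enzyme, averaged 442 FPKM in 1st instars, 54.2 FPKM in 5th instars and 15.2 FPKM in adults. The pteridine list holds several contigs each of unigenes c56740_g1 and c61481_g1 (sepiapterin reductase), which are not separate evidence. Its other contigs are described as xanthine dehydrogenase or dihydropteridine reductase, whose part in pigment synthesis was not tested. Of 37 contigs for the traffic of pigment granules and related vesicles, 0 were higher and 14 lower in adults against 5th instars as deposited (limma, with 16 at an unadjusted p below 0.05), but 8 were higher and 4 lower with the same sum in each library, where 7789 of all 27678 contigs were higher and 3181 lower. The blue pigment protein insecticyanin-A-like (c54340_g1_i1) had 20.0, 29.7, 28.9 and 12.1 FPKM in 1st instars, 150, 282, 898 and 296 FPKM in 5th instars, 11.2 and 39.8 FPKM in males and 251 and 14.4 FPKM in females. It rose by 3.86 in 5th over 1st instars (limma adjusted p = 0.0043) and fell by 3.13 in adults against 5th instars (limma adjusted p = 0.017). The fall in adults was called neither with libraries scaled to the same sum nor with quantile normalization.

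The spread between libraries of a stage differed by stage. Over the pigment contigs above 0 in all 4 libraries, the highest library exceeded the lowest by a median of 1.53-fold in 1st instars (39 contigs), 3.13-fold in 5th instars (40 contigs) and 3.79-fold in adults, both sexes together (36 contigs). The stage of the highest mean was spread evenly, with 15 of the 42 tested contigs highest in 1st instars, 14 in 5th instars and 13 in adults (35.7%, 33.3% and 31.0%, against 36.9%, 34.6% and 28.5% of all contigs). The median log2 change of all contigs, −0.19 for adults minus 5th instars and −0.12 for adults minus 1st instars, became 0.54 and 0.67 with libraries scaled to the same sum and 0.15 and 0.13 with quantile normalization. Relative to that shift, the median of the 11 kynurenine contigs stayed below that of all contigs (−1.40, −0.37 and −0.76 for adults minus 5th instars as deposited, with the same sum and with quantile normalization) and that of the 7 melanin enzymes stayed above it (0.85, 1.81 and 1.28).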

How the data were processed

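RNA of 12 pools of whole insects was sequenced as paired reads. Per the study's methods, the authors trimmed reads with Fastx-tools and assembled the pooled reads with Trinity. Bowtie 0.12.7 aligned each library to the assembly and RSEM 1.1.17 estimated FPKM (versions per the submitters' notes), and contigs were described by their best BLASTx hit. RSEM divides reads shared between contigs of 1 unigene by a model, so single contigs can trade values. The methods speak of mapping 8 libraries, while the deposited FPKM table holds 12. It is on a linear scale and read counts were not analysed here, so no count model was fitted and no counting interval is given.

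Each column was assigned by its label. Contigs with a mean of at least 1 FPKM (27678 of 99711) were fitted on log2(FPKM + 1) with limma 3.58.1 (R 4.3.3), a trended spread and Benjamini-Hochberg adjustment over all of them. Stages were compared in a fit of 3 stages and the sexes in a fit of 4 groups. Two-sided exact permutation tests used the 70 splits of 4 and 4 libraries, where the smallest p is 0.0286. The fits were tested on simulated data. In each role, contigs called in at least 1 comparison were named by largest absolute change, up to 30 with the value in every library, and those below the filter by number and range. The members, the word lists and the markers were chosen with earlier results of these data known. Alternatives were other pseudocounts, filters and scalings, robust spread, other groupings of the fit, a replicate block, unigene sums and each library left out in turn.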

Additional observations from a re-analysis of the deposited data

Results flagged for a closer look

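In each stage of 4 libraries, the gap between the highest or lowest library and its nearest neighbour was compared with the range (Dixon's test), which by chance picks out about 1 in 20 groups. Of 124 groups examined over the tested pigment contigs 9 exceeded it, against 6.2 expected by chance, so the number carries little weight.

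Female replicate 3 stood above the other adults in 3 kynurenine contigs, with 50.9 FPKM of tryptophan 2,3-dioxygenase (c57270_g1_i1) against 17.6 to 20.7 FPKM, 24.1 FPKM of kynurenine formamidase (c62569_g1_i1) against 4.95 to 7.07 FPKM, and 0.136 FPKM of kynurenine/aminoadipate aminotransferase (c62614_g2_i2) against 0 to 0.0230 FPKM. The last values are near 0. In 5th instars, replicate 1 stood high in yellow-e contigs c63317_g1_i1 (1.83 FPKM against 0.288 to 0.430 FPKM) and c63317_g1_i3 (1.92 FPKM against 0.403 to 0.487 FPKM), which share a unigene. Replicate 2 stood low in kynurenine 3-monooxygenase c63641_g2_i2 (4.43 FPKM against 11.2 to 12.4 FPKM). In 1st instars, replicate 2 was high in yellow-d c56410_g1_i2 (4.63 FPKM against 1.77 to 2.09 FPKM) and yellow-f3 c60497_g1_i1 (11.7 FPKM against 9.85 to 10.1 FPKM), and replicate 1 in yellow-f4 c61672_g1_i2 (9.92 FPKM against 8.61 to 8.83 FPKM).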

How the results depend on the processing

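Among called pigment contigs, for adults minus 5th instars, 6 higher became 16 with libraries scaled to the same sum and 10 with quantile normalization, and 6 lower became 3 under each of these, without the filter and in a fit of only the groups compared. For adults minus 1st instars, 14 higher became 7 with a mean of at least 5 FPKM and 13 lower became 7 with the same sum. For 5th minus 1st instars, 10 higher became 5 with a mean of at least 5 FPKM and 16 with only the groups compared. For males minus females, 3 higher became 1 with a pseudocount of 0.01, 5 without the filter, 0 with a mean of at least 5 FPKM and 6 with unigene sums, and 2 lower became 0 with only the adults. These counts are limma calls, and at an unadjusted p below 0.05 there were 4 higher with a mean of at least 5 FPKM and 3 lower with only the adults. Fewer contigs are tested under the stricter filter. The cause was not tested for the others. Leaving out 1 library gave 1 to 6 higher and 1 to 4 lower in males. The share of higher calls over all contigs was 27.0% as deposited, 71.0% with the same sum and 50.9% with quantile normalization for adults minus 5th instars, 30.9%, 70% and 47.3% for adults minus 1st instars, and 55.1%, 34.6% and 36.9% for males minus females. The change of dopa decarboxylase in adults minus 5th instars, −0.55 and not called, reversed to 0.52 with the same sum and 0.21 with quantile normalization.

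Of 64 printed changes, 50 kept their direction and their side of the threshold with the same sum, 55 with quantile normalization, 59 without the filter, 56 with only the groups compared and 64 with robust spread. Libraries with the same number in their titles had r of −0.24 to 0.09 (12 pairs), and those with different numbers −0.18 to 0.24 (36 pairs). With 2 libraries a sex, deviations from the mean mirror each other, so this check cannot tell whether the numbers pair the pools. With the replicate block, 1 of 56 stage changes, that of yellow-f3 c60497_g1_i2 in adults minus 1st instars (2.43), missed the threshold. The block used the numbers in the sample titles, which are 3 and 4 for females, so no block could be fitted for the sexes. The column labels number the libraries of each sex from 1, and a block by these labels was not fitted. Low contigs are limited by a counting error that FPKM alone do not give.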

Other observations

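Contigs that the rule did not take, because their descriptions are spelled otherwise, were looked up after the table had been seen and are given as values only. A unigene described as scarlet, the transporter that with white loads ommochrome precursors in *Drosophila*, had 13.5, 13.4, 11 and 13.2 FPKM in 1st instars, 2.56, 2.68, 8.32 and 1.87 FPKM in 5th instars, 0.231 and 0.124 FPKM in males and 0.299 and 0.174 FPKM in females (c60412_g1_i1). The 3 stages did not overlap, and adults of both sexes were lowest. A further contig described as putative scarlet (c74043_g1_i1) was listed at 0 in all larvae and both female libraries and had 1.25 and 0.435 FPKM in males.

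The enzyme tan, which in *Drosophila* undoes the ebony reaction and frees dopamine for dark pigment, was held by 6 contigs of 1 unigene. Contig c62987_g1_i1 had 4.21, 4.22, 4.85 and 4.06 FPKM in 1st instars, 0.432, 1.26, 1.02 and 0.789 FPKM in 5th instars, 3.49 and 2.30 FPKM in males and 2.60 and 0.960 FPKM in females. All 1st instar libraries lay above all later ones. Female replicate 4, at 0.960 FPKM, lay among the 5th instar libraries. On average tan was thus lowest in 5th instars, whereas the ebony contigs were on average lowest in 1st instars.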
